A study of Mus musculus with 8 samples.

Results

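Neutrophils were a rare population in this droplet single-cell data set from the lamina propria of the mouse colon. A cell barcode was counted as a neutrophil when it held at least 400 genes and under 20% mitochondrial counts, at least 10 unique molecular identifiers (UMIs, each standing for 1 captured RNA molecule) of S100a8 and S100a9 together, and at least 1 of Csf3r and Retnlg together. It could hold at most 2 UMIs of C1qa, C1qb and C1qc together, 1 of Ccl22 and Ccl17, 1 of Cd3d, Cd3e and Cd3g, and 2 of Col3a1, which mark macrophages, dendritic cells, T cells and fibroblasts. The rule found 136 neutrophils among 96721 barcodes that met the gene and mitochondrial limits (0.141%). The 4 untreated libraries gave 4, 5, 5 and 7 of them and the 4 libraries of dextran sulfate sodium (DSS)-treated mice gave 16, 21, 52 and 26, so 21 neutrophils stand for the untreated colon and 115 for the inflamed one.

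The study used C57BL/6 mice of 10 to 12 weeks that were wildtype or carried the mutation that the sample titles name S203AKI, called mutant here. Mice were left untreated, or drank 2% DSS, which injures the colon epithelium, for 7 days and then water for 3 days before harvest at day 10. Each of the 4 groups (untreated wildtype, untreated mutant, DSS-treated wildtype, DSS-treated mutant) had 2 libraries, described as biological replicates. Cells were passed through a CD4+ T cell isolation kit before about 10000 were loaded per library, so every share below is a share of a selected preparation and not of the colon. The labels name no cell type to which the mutation is limited.

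Neutrophils are short-lived granulocytes that are made in the bone marrow, where granulocyte colony-stimulating factor (encoded by Csf3) drives their output, and that enter inflamed tissue along chemokines read by the receptor CXCR2. They load their granules in a fixed order during maturation, with primary granule proteins such as myeloperoxidase made first, secondary granule proteins such as lactoferrin and neutrophil gelatinase-associated lipocalin made next, and gelatinase made last. The transcripts of early granules fade as the cells mature, while S100a8 and S100a9, which encode the calcium- and zinc-binding protein calprotectin, remain abundant.

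The promoters of 3 secondary granule genes that were higher after DSS are shown because the family of C/EBP factors, known regulators of these genes, binds DNA words that can be looked for in them. Each is the 250 bases before the RefSeq transcription start on GRCm38.p6, read 5′ to 3′ on the gene's own strand, with capitals marking matches to TTGCNNAA on either strand.
Ngp, chr9:110419558-110419807, plus strand: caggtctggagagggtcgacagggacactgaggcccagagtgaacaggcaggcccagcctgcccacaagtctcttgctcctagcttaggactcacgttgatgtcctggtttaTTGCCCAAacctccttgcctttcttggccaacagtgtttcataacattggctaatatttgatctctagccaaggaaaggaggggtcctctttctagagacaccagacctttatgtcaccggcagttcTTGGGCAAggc
Lcn2, chr2:32387740-32387989, minus strand: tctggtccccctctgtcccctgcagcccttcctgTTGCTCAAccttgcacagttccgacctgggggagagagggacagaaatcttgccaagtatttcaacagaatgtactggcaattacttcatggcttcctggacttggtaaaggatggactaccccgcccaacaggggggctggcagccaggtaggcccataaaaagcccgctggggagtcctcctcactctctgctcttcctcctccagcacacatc
Mmp8, chr9:7558179-7558428, plus strand: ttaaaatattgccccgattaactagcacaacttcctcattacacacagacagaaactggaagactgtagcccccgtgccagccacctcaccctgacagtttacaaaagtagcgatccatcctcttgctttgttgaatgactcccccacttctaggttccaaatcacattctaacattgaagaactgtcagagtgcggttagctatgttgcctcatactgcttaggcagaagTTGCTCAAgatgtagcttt
Ngp held 2 matches, 138 and 11 bases before the start, Lcn2 held 1 at 216 bases and Mmp8 held 1 at 19 bases. The remaining secondary granule gene called higher, Hp, had no promoter in the reference used and was not searched. TTGCNNAA was present in 9.56% of all 32851 promoters of this length and in 36 of the 341 tested neutrophil genes with a promoter in the table (10.6%). Of the 29 genes higher after DSS, 21 had a promoter and 7 of these held the word (33.3%): Anxa1, Gda, Iqgap1, Lcn2, Mmp8, Ngp and Pkm. Of the 7 lower genes, 6 had a promoter and 0 held it. The NF-κB word searched on both strands (GGG, any 2 bases, TTTCC) was present in 1.41% of all promoters, in 12 of the 341 (3.52%) and in 0 of the higher or lower genes. A match describes letters in this window and does not show binding. Among the higher genes with TTGCNNAA, Anxa1, Gda, Mmp8, Ngp and Pkm passed the filter on low counts only through DSS-treated libraries. The set of higher genes also changed when 1 library was left out. These shares are therefore a description, and a role of C/EBP factors was not tested.

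The neutrophils were checked against markers. All 12 genes of a neutrophil marker list had UMIs over all libraries pooled. Their summed level was 24860 to 88767 counts per 1000000 neutrophil UMIs of a library (CPM) in untreated and 161068 to 252957 CPM in DSS-treated libraries. The list contains the selecting genes, so this is a description. Of the listed genes outside the rule, Ly6g was at 32.5 ± 65.1 CPM untreated and 356 ± 50.9 CPM after DSS (SD, n = 4). Cxcr2 was at 154 ± 168 and 561 ± 94.8 CPM. Mmp9, Trem1, Il1r2, Hdc, G0s2 and Mxd1 had untreated means of 417, 1173, 1181, 2569, 2595 and 2968 CPM. Genes of mast cells, eosinophils, glia and erythrocytes had 0 UMIs, as did Cd8a, Ms4a1, Ccl17, Cd209a and Zbtb46. Dendritic cell markers (5 of 8 with UMIs) summed to 0 to 745 CPM untreated and 0 to 64.3 CPM after DSS, and B cell markers (2 of 4) to 0 to 393 and 0 to 65.5 CPM. Macrophage markers (8 of 8) summed to 372 to 993 CPM untreated and 229 to 1215 CPM after DSS. Monocyte markers (7 of 7 with UMIs) summed to 0 to 98.2 CPM untreated and 140 to 3618 CPM after DSS, and plasma cell markers (4 of 4) to 331 to 1669.9 CPM untreated and 368 to 42710 CPM after DSS. In 14 neutrophils markers of another type reached 3 UMIs, or immunoglobulin transcripts reached 50, and 1 barcode of DSS-treated mutant library 1 held 5639 immunoglobulin UMIs. The selection rule itself limits Ccl17, Ccl22, Cd3, C1q and Col3a1 transcripts, so low levels of those are partly set by it. The part of these markers in the results was not tested, beyond the counts without the 14 neutrophils given below.

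Depth differed between the groups. The libraries held 34497509 to 46960005 UMIs in all, but their neutrophils held 6044 to 10740 UMIs untreated and 31086 to 106930 after DSS, so 1 UMI was worth 93.1 to 165 CPM in untreated and 9.35 to 32.2 CPM in DSS-treated libraries. The median neutrophil held 1161 UMIs untreated and 1993 after DSS, and 37 against 373 UMIs of S100a8 and S100a9. In untreated wildtype library 1, 1 of the 4 neutrophils held 7876 of the 10740 neutrophil UMIs. This barcode had 2240 genes and 92 UMIs of S100a8 and S100a9. The CPM values of that library therefore mostly describe 1 barcode, which also weighs on the untreated means and pooled ratios. Retnlg, a resistin-like gene of maturing neutrophils that also served to select them, was at 466 and 1302 CPM in untreated wildtype, 331 and 884 in untreated mutant, 19076 and 28783 in DSS-treated wildtype and 15982 and 23346 in DSS-treated mutant libraries. Csf3r, the receptor of granulocyte colony-stimulating factor and the other such gene, was at 279 and 1302 CPM in untreated wildtype, 1655 and 1179 in untreated mutant, 1190.2 and 581 in DSS-treated wildtype and 1019 and 318 in DSS-treated mutant libraries. Retnlg was higher in every DSS-treated library than in any untreated one, and the Csf3r ranges overlapped. Close to the limits of the rule, 3 neutrophils had 10 to 14 UMIs of S100a8 and S100a9 and 6 further barcodes with 5 to 9 met every other limit, while 11 neutrophils had 400 to 449 genes and 13 further barcodes had 200 to 399. Of 216 qualifying barcodes with at least 10 UMIs of S100a8 and S100a9, 57 lacked any UMI of Csf3r and Retnlg. A limit of 2 UMIs of Csf3r and Retnlg kept 14 untreated and 110 DSS-treated neutrophils. S100a8 and S100a9 in T cell barcodes can come from free RNA or from a barcode with more than 1 cell, and their source was not tested. There they made up at most 0.100 per 10000 UMIs untreated and 0.221 to 1.75 after DSS. At least 10 such UMIs were found in 0 to 0.0372% of T cell barcodes untreated and 0.0343 to 0.104% after DSS. Of 1176 barcodes found in more than 1 library, 5 were neutrophils.

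**Figure D1:**
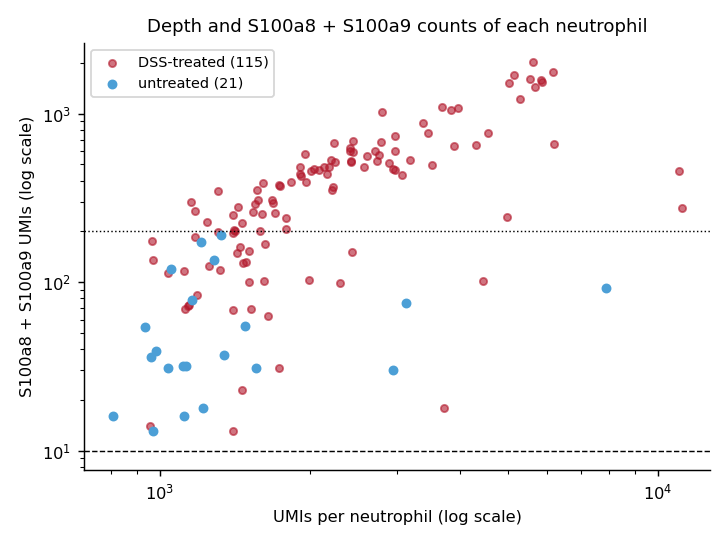
UMIs per neutrophil (x axis, log scale) against UMIs of S100a8 and S100a9 together (y axis, log scale), with 1 point per neutrophil; the dashed line is the selection limit of 10 and the dotted line is 200. Of the 115 neutrophils from DSS-treated mice 82 lie above 200 and 33 at or below it, and the 21 untreated ones lie below it.

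After DSS, neutrophils made up a larger share of barcodes in all 4 libraries. The share was 0.0302% and 0.0418% in untreated wildtype, 0.0474% and 0.0637% in untreated mutant, 0.148% and 0.157% in DSS-treated wildtype and 0.338% and 0.251% in DSS-treated mutant libraries. The untreated and DSS-treated ranges did not overlap. The means were 0.0458% ± 0.0139 and 0.224% ± 0.0898 (SD, n = 4), a ratio of 4.89 and a log2 difference of 2.15 (exact two-sided permutation test over libraries, p = 0.0286, the smallest that 70 splits allow). With splits kept within each genotype the exact permutation p was 0.0556, the smallest that 36 splits allow. The ratio was 4.23 in wildtype, from 0.0360% ± 0.00821 to 0.152% ± 0.00620, and 5.31 in mutant mice, from 0.0556% ± 0.0115 to 0.295% ± 0.0614 (SD, n = 2). Set against macrophages of the same libraries, a denominator chosen after seeing the data, there were 2.38, 4.29, 4.31 and 11.4 neutrophils per 1000 macrophage barcodes untreated and 19.8, 17.5, 43.7 and 24.8 after DSS. A limit of 600 genes kept 7 untreated and 83 DSS-treated neutrophils and gave a log2 difference of 3.21.

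The mean neutrophil share was higher in mutant than in wildtype libraries of the same treatment, by 1.54 times untreated and 1.94 times after DSS. Within each treatment both mutant shares lay above both wildtype shares, but the exact binomial intervals of the untreated libraries overlapped (0.00822% to 0.0772% for the lowest and 0.0256% to 0.131% for the highest). After DSS the interval of mutant library 2 (0.164% to 0.368%) overlapped those of both wildtype libraries (0.0845% to 0.240% and 0.0969% to 0.239%). The interval of DSS-treated mutant library 1 (0.253% to 0.443%) lay above both. The log2 difference over both treatments was 0.76 (exact two-sided permutation within treatments, p = 0.0556, the smallest that 36 splits allow), so this design could not reach 0.05. With a limit of 200 genes the untreated counts were 6 and 7 in wildtype and 5 and 7 in mutant libraries, and the log2 difference was 0.42 (exact permutation p = 0.111).

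**Figure D2:**
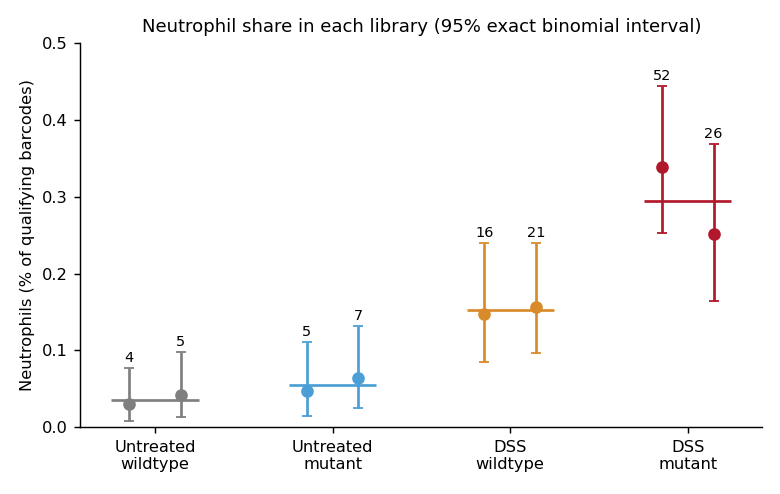
Neutrophils as a percentage of qualifying barcodes (y axis) in each of the 8 libraries, grouped by treatment and genotype (x axis); points are libraries, bars their 95% exact binomial interval, which covers counting error only, short lines the group means and numbers the neutrophil counts. The 4 DSS-treated libraries lie between 0.148% and 0.338%, above the untreated ones at 0.0302% to 0.0637%.

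Summed over the neutrophils of each library, 452 genes could be tested for DSS against untreated over both genotypes, and 36 passed an edgeR adjusted p of 0.05 (7.96% of those tested), 29 higher (6.42%) and 7 lower (1.55%) after DSS. The higher genes included 4 secondary granule genes and 3 hypoxia and glycolysis genes, and the lower ones included anti-apoptotic Bcl2a1 genes and the chemerin-binding receptor gene Ccrl2. The 4 untreated and 4 DSS-treated values did not overlap for 88 of the 452 genes (19.5%) and for 31 of the 36. A gene entered the test when at least 2 libraries reached 10 counts at the median library size, and 17 of the 29 higher genes did so only through DSS-treated libraries and all 7 lower genes only through untreated ones. The direction of those genes was largely fixed by this filter, so counts and medians over tested genes of a list are descriptions. Single libraries moved the count: 5 calls remained without untreated wildtype library 1 and 2, Lcn2 and Wfdc21, without DSS-treated wildtype library 2, with 0 lower genes among them. All 36 genes in the first of these fits, and all 30 that were tested in the second, kept their sign, with a median size of 0.991 and 1.02 times that with all libraries. Both fits reused the remaining libraries in which these genes had been picked, so the kept signs and sizes are no independent support. In turn 23 genes passed without DSS-treated wildtype library 1 and 19 without DSS-treated mutant library 2. Among neutrophils with at most 200 UMIs of S100a8 and S100a9, 0 of 218 tested genes passed in edgeR (21 at an unadjusted p under 0.05). That limit uses genes of the selection rule whose levels differ between the groups, and it kept all 21 untreated but only 5, 2, 20 and 6 DSS-treated neutrophils, so it is no test independent of the selection. With library totals in place of TMM factors, which differed between the groups, 56 genes passed, 22 higher and 34 lower, and the median of all genes moved from -0.03 to -0.49; all 36 genes kept their sign and 29 their call. Without the 14 neutrophils with markers of other types 47 genes passed, 36 higher and 11 lower.

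Of 8 secondary granule genes 4 were tested, Lcn2, Ngp, Mmp8 and Hp, and these 4 rose after DSS (median log2 fold change 4.03, against -0.03 over all tested genes, and the same with Ngp at its lower bound). Over all 452 tested genes 6.42% were called higher. Ngp, Mmp8 and Hp entered the test only through DSS-treated libraries, so their direction was largely fixed by the filter, and Lcn2 entered through both groups. The count was 1, Lcn2, both without untreated wildtype library 1 (7 tested) and without DSS-treated wildtype library 2 (5 tested). Lcn2, which encodes neutrophil gelatinase-associated lipocalin, an iron-siderophore-binding antibacterial protein, was at 559 and 1822 CPM in untreated wildtype, 827 and 295 in untreated mutant, 6755 and 6443 in DSS-treated wildtype and 4302 and 8229 in DSS-treated mutant libraries. Its lowest DSS-treated library stood above its highest untreated one, and the means were 876 ± 667 CPM untreated and 6432 ± 1619.9 CPM after DSS (SD, n = 4) (log2 fold change 3.53, SE 0.53, edgeR adjusted p = 0.0115). After each neutrophil was thinned to 500 UMIs, a mean of 29.8% of untreated and 81.5% of DSS-treated neutrophils held a Lcn2 UMI, against 0.05% and 0.075% of T cell barcodes.

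Ngp, neutrophilic granule protein, was at 0 and 0 CPM in untreated wildtype, 0 and 0 in untreated mutant, 289.5 and 687 in DSS-treated wildtype and 496 and 7871 in DSS-treated mutant libraries. All 4 untreated libraries were at 0, so with a floor of 3 counts over the untreated group it was at least 34.9-fold higher after DSS (edgeR adjusted p = 0.0266), and DSS-treated mutant library 2 stood far above the other DSS-treated libraries. Without that library the bound for Ngp was 5.99-fold. Mmp8, neutrophil collagenase, was at 0 and 130.2 CPM in untreated wildtype, 165 and 0 in untreated mutant, 547 and 1109 in DSS-treated wildtype and 383 and 2127 in DSS-treated mutant libraries. It had 2 UMIs in all untreated neutrophils and 335 in all DSS-treated ones, a ratio of 19.6 after scaling to the group totals with a 95% counting interval of 5.40 to 163 (edgeR adjusted p = 0.0262), and the ratio was 10.8 without DSS-treated mutant library 2. Hp, which encodes the haemoglobin-binding haptoglobin, was at 186 and 130.2 CPM in untreated wildtype, 331 and 884 in untreated mutant, 1158 and 1003 in DSS-treated wildtype and 1113 and 1789 in DSS-treated mutant libraries. For Hp the fit gave log2 fold change 2.41, SE 0.49, edgeR adjusted p = 0.0200. Neither Mmp8 nor Hp overlapped between untreated and DSS-treated libraries. Without DSS-treated mutant library 2, Ngp could not be tested and Mmp8 lost its call (edgeR adjusted p = 0.0517), while Lcn2 and Hp kept theirs.

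DSS-treated mutant library 2 held neutrophils rich in secondary granule transcripts. Of its 26 neutrophils 17 held at least 10 UMIs of Ngp, Camp and Ltf together, against 1 of 52 in DSS-treated mutant library 1 and 0 in each of the other libraries. This fixed limit depends on depth. The median neutrophil held 3875 UMIs in this library, 1580.5 in DSS-treated mutant library 1, and 1862.5 and 2572 in the DSS-treated wildtype libraries. Camp, which encodes the antimicrobial peptide cathelicidin, was at 46.8 and 358 CPM in the mutant DSS-treated libraries and 0 elsewhere. Chil3, a chitinase-like secreted protein, was at 282 CPM in DSS-treated wildtype library 2, 9.35 and 2852 CPM in the mutant DSS-treated libraries and 0 elsewhere. The following values describe cells of 1 library, with Poisson intervals for counting error only. Its 17 granule-rich neutrophils had 4372 CPM of Cxcl2 (95% interval 3908 to 4877) and its other 9 had 10196 CPM (9027 to 11475). The median neutrophil held 5018 UMIs in the 17 and 3177 in the 9. Retnlg was at 27863 CPM in the 17 and 11012 CPM in the 9, and Il1b at 1765 and 6118 CPM. Chil3 was at 692 CPM in the 17 and 8750.1 CPM in the 9, where 7 barcodes carried its 236 UMIs and 1 held 91. Chil3 is also a monocyte gene: 5 other monocyte genes together had 25 UMIs in 2 of the 9 and 1 UMI in the 17, and their part in the difference was not tested.

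Primary granule genes were nearly silent. Elane, Ctsg and Ms4a3 had 0 UMIs in all neutrophils and Mpo had 1, while Prtn3 (proteinase 3) had 1 UMI in DSS-treated mutant library 1 and 8 in library 2; 0 of the 5 could be tested. Of the tertiary granule genes 3 of 5 were tested and 0 passed (median 1.22), where 7.96% of all 452 tested genes passed. Mmp9, the gelatinase of these granules, differed by 1.98 on the log2 scale (edgeR adjusted p = 0.0708, SE 0.61). Mmp9 and Adam8 entered the test only through DSS-treated libraries. Their direction and the sign of the median were therefore largely fixed by the filter. Slpi entered through both groups.

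Wfdc21, a whey acidic protein-domain gene, was at 186 and 0 CPM in untreated wildtype, 496 and 0 in untreated mutant, 2799 and 3503 in DSS-treated wildtype and 2385 and 5317 in DSS-treated mutant libraries. For Wfdc21 the fit gave log2 fold change 5.01, SE 0.79, edgeR adjusted p = 0.0115. Wfdc17, a related gene that tempers macrophage activation, was at 652 and 260.3 CPM in untreated wildtype, 3475 and 491 in untreated mutant, 7817 and 9313 in DSS-treated wildtype and 6163 and 4651 in DSS-treated mutant libraries. For Wfdc17 the fit gave log2 fold change 3.29, SE 0.60, edgeR adjusted p = 0.0149. Both were called in the list of suppression-associated genes, where 8 of 10 were tested, 2 rose and 0 fell (median 0.02). Over all 452 tested genes 6.42% were called higher and 1.55% lower. Stfa2l1, a stefin that inhibits cysteine proteases, was at 93.1 and 260.3 CPM in untreated wildtype, 0 and 196 in untreated mutant, 643 and 1796 in DSS-treated wildtype and 1150.3 and 1173 in DSS-treated mutant libraries. For Stfa2l1 the fit gave log2 fold change 3.54, SE 0.67, edgeR adjusted p = 0.0153, and the stefin gene Gm5483 rose too; stefins are near-identical copies, so the split of reads between them is uncertain. Neither Wfdc21 nor Wfdc17 nor Stfa2l1 overlapped between untreated and DSS-treated libraries. Wfdc21 and Stfa2l1 entered the test only through DSS-treated libraries, so their direction was largely fixed by the filter. Each had 5 UMIs in all untreated neutrophils. Wfdc17 and Gm5483 entered through both groups.

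Ifitm6, an interferon-induced transmembrane protein gene, was at 0 and 130.2 CPM in untreated wildtype, 165 and 0 in untreated mutant, 772 and 2059.7 in DSS-treated wildtype and 888 and 3657 in DSS-treated mutant libraries. It had 2 UMIs in all untreated neutrophils and 604 in all DSS-treated ones, a ratio of 35.4 after scaling to the group totals with a 95% counting interval of 9.76 to 293 (edgeR adjusted p = 0.0149), and the ratio was 21.0 without DSS-treated mutant library 2. Ifitm1, of the same family, was at 1024 and 1822 CPM in untreated wildtype, 496 and 3339.9 in untreated mutant, 7238 and 6126 in DSS-treated wildtype and 7715 and 3956 in DSS-treated mutant libraries. For Ifitm1 the fit gave log2 fold change 2.38, SE 0.53, edgeR adjusted p = 0.0262. Both were higher in every DSS-treated library than in any untreated one. Ifitm1 was the 1 gene that passed of 5 tested in a list of 18 interferon-induced genes (median 0.88), where 6.42% of all 452 tested genes were called higher. Tspo, the mitochondrial translocator protein gene, was at 0 and 390.5 CPM in untreated wildtype, 0 and 98.2 in untreated mutant, 1544 and 1215 in DSS-treated wildtype and 1178 and 1471 in DSS-treated mutant libraries. For Tspo the fit gave log2 fold change 4.16, SE 0.71, edgeR adjusted p = 0.0115. Anxa1, whose product annexin A1 limits neutrophil migration, had 3 UMIs in all untreated neutrophils and 228 in all DSS-treated ones, a ratio of 8.91 after scaling to the group totals with a 95% counting interval of 3.01 to 43.5 (edgeR adjusted p = 0.0266), and the ratio was 5.28 without DSS-treated mutant library 2. Ifitm1 was not called without untreated wildtype library 1 or without DSS-treated wildtype library 2. Ifitm6, Tspo and Anxa1 entered the test only through DSS-treated libraries, so their direction was largely fixed by the filter. Tspo had 4 UMIs in all untreated neutrophils. Ifitm1 entered through both groups.

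**Figure D3:**
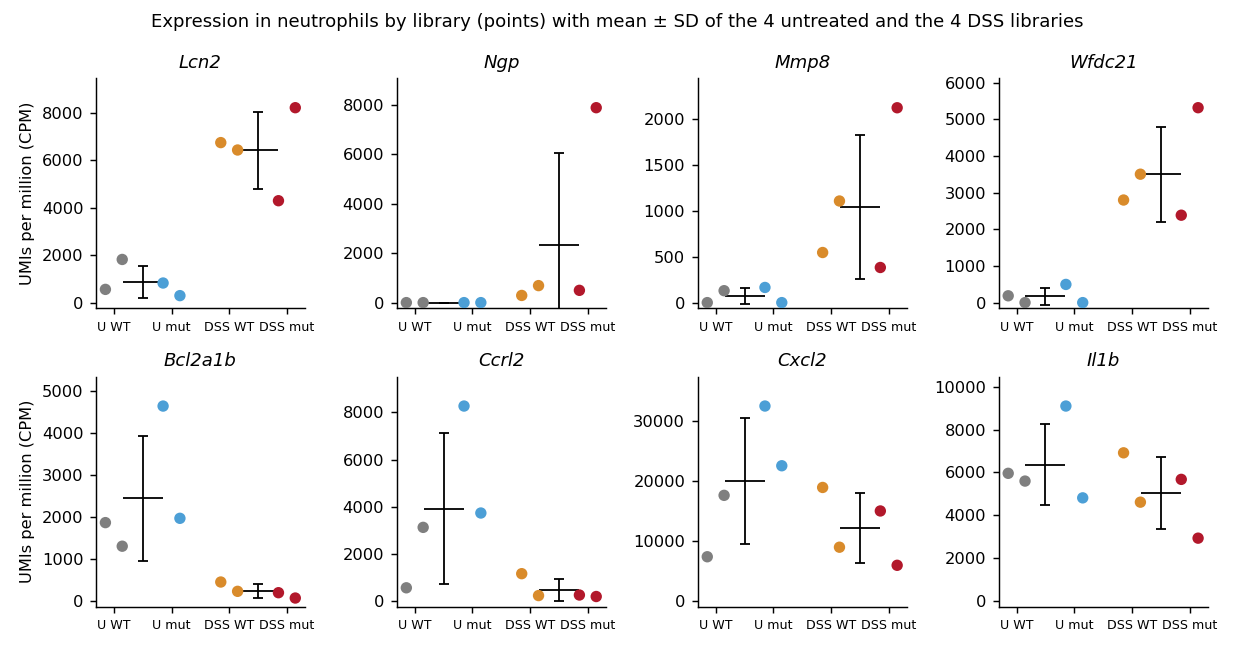
Level of named genes (y axis, CPM of the neutrophil UMIs) in each of the 8 libraries, grouped by treatment and genotype (x axis), with 1 point per library and the mean and SD of the untreated and the DSS-treated libraries. Lcn2 lies at 295 to 1822 CPM untreated and 4302 to 8229 CPM after DSS, and Bcl2a1b at 1302 to 4633 and 69.6 to 450 CPM.

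Of 14 hypoxia and glycolysis genes 4 were tested and 3 rose (median 2.22), where 6.42% of all 452 tested genes were called higher. However, 0 of 9 tested passed without untreated wildtype library 1 (median 1.45) and 0 of 2 without DSS-treated wildtype library 2 (median 2.36). Pkm and Hif1a entered the test only through DSS-treated libraries and Gapdh through both groups. Gapdh, a glycolytic enzyme, was at 652 and 781 CPM in untreated wildtype, 331 and 688 in untreated mutant, 1994 and 1901 in DSS-treated wildtype and 1824 and 1610 in DSS-treated mutant libraries. For Gapdh the fit gave log2 fold change 2.04, SE 0.41, edgeR adjusted p = 0.0188. Pkm, pyruvate kinase, was at 279 and 390.5 CPM in untreated wildtype, 0 and 295 in untreated mutant, 1062 and 1021 in DSS-treated wildtype and 991 and 656 in DSS-treated mutant libraries. For Pkm the fit gave log2 fold change 2.39, SE 0.55, edgeR adjusted p = 0.0262. Hif1a, the oxygen-regulated transcription factor, was at 186 and 390.5 CPM in untreated wildtype, 0 and 0 in untreated mutant, 547 and 634 in DSS-treated wildtype and 589 and 318 in DSS-treated mutant libraries. Hif1a had 5 UMIs in all untreated neutrophils and 148 in all DSS-treated ones, a ratio of 3.47 after scaling to the group totals with a 95% counting interval of 1.45 to 10.8 (edgeR adjusted p = 0.0262); its ranges overlapped while those of Gapdh and Pkm did not. Ldha, lactate dehydrogenase, differed by 1.62 on the log2 scale (edgeR adjusted p = 0.156, SE 0.65). Among pattern recognition and activating receptors 6 of 12 were tested and 1, the lipopolysaccharide co-receptor Cd14, rose (median 0.07). Cd14 was at 1955 and 1822 CPM in untreated wildtype, 3805 and 2161 in untreated mutant, 5855 and 5563 in DSS-treated wildtype and 3600.5 and 3836 in DSS-treated mutant libraries. For Cd14 the fit gave log2 fold change 1.43, SE 0.38, edgeR adjusted p = 0.0406, with overlapping ranges, and it lost its call with library totals in place of TMM factors.

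The survival genes included 2 that fell, among 6 tested of 10 (median -1.07), where 1.55% of all 452 tested genes were called lower. Without untreated wildtype library 1, 0 of 8 tested passed and the median was 0.56; without DSS-treated wildtype library 2, 0 of 4 passed and it was -0.90. Bcl2a1b, an anti-apoptotic BCL2 relative, was at 1862 and 1302 CPM in untreated wildtype, 4633 and 1965 in untreated mutant, 450.4 and 229 in DSS-treated wildtype and 196 and 69.6 in DSS-treated mutant libraries. It was lower in every DSS-treated library than in any untreated one, with means of 2440.3 ± 1490.4 CPM untreated and 236 ± 158 CPM after DSS (SD, n = 4) (log2 fold change -2.97, SE 0.50, edgeR adjusted p = 0.0115). Bcl2a1a, its near-identical neighbour, was at 372 and 260.3 CPM in untreated wildtype, 1820 and 491 in untreated mutant, 257 and 88.0 in DSS-treated wildtype and 37.4 and 19.9 in DSS-treated mutant libraries. For Bcl2a1a the fit gave log2 fold change -2.59, SE 0.69, edgeR adjusted p = 0.0406. The counting of reads shared by these copies is uncertain. Both genes entered the test only through untreated libraries, so their direction was largely fixed by the filter. Bcl2a1a lost its call in 9 of 15 alternatives and Bcl2a1b in 3 of 19. Bcl2a1b is also made by T cells: after thinning to 500 UMIs it was seen in 63.9% of untreated and 7.68% of DSS-treated neutrophils and in 18.9% and 14.3% of T cell barcodes. T cell markers summed to 0 to 521 CPM in untreated and 19.9 to 386 CPM in DSS-treated neutrophils (7 of 8 with UMIs, Cd8a at 0), and dendritic cell markers to 0 to 745 and 0 to 64.3 CPM; their part in the levels of Bcl2a1a, Bcl2a1b, Ccrl2 and Lst1 was not tested. Genes of antigen-presenting cells, singled out after their values were seen, had fold changes of the same sign and also entered the test only through untreated libraries. The log2 fold changes were -3.71 for Cd74, -3.53 for H2-Eb1, -3.07 for H2-Ab1, -2.92 for H2-Aa and -2.83 for Cst3 (edgeR adjusted p from 0.0545 to 0.148, none called). Cd74 was at 14898 CPM in untreated wildtype library 1 and at 0 to 1965 CPM in the other untreated libraries, against 32.2 to 370 CPM after DSS. Its part was not tested either. In untreated wildtype library 1 a single barcode held 7876 of the 10740 neutrophil UMIs, and the part of this barcode was not tested. Without the 14 neutrophils with markers of other types both Bcl2a1 genes, Ccrl2 and Lst1 kept their calls. The markers that set aside the 14 include none of Cd74, H2-Eb1, H2-Ab1, H2-Aa and Cst3, and 18 untreated neutrophils remained. The part of antigen-presenting cells was therefore not tested by this fit.

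Ccrl2 was the 1 gene that passed of 7 tested chemoattractant receptors in a list of 9, and it fell (list median 0.33), where 1.55% of all 452 tested genes were called lower. It was at 559 and 3124 CPM in untreated wildtype, 8273 and 3733 in untreated mutant, 1158 and 229 in DSS-treated wildtype and 253 and 189 in DSS-treated mutant libraries. For Ccrl2 the fit gave log2 fold change -2.59, SE 0.62, edgeR adjusted p = 0.0266. DSS-treated wildtype library 1 lay above untreated wildtype library 1, so the ranges overlapped. Ifrd1, an interferon-related regulator, was at 652 and 781 CPM in untreated wildtype, 2316 and 982 in untreated mutant, 64.3 and 106 in DSS-treated wildtype and 215 and 189 in DSS-treated mutant libraries. For Ifrd1 the fit gave log2 fold change -2.48, SE 0.49, edgeR adjusted p = 0.0185. Lst1, a leukocyte-specific membrane adaptor, was at 466 and 781 CPM in untreated wildtype, 1655 and 589 in untreated mutant, 129 and 106 in DSS-treated wildtype and 140.3 and 139 in DSS-treated mutant libraries. For Lst1 the fit gave log2 fold change -2.16, SE 0.51, edgeR adjusted p = 0.0266. Ifrd1 and Lst1 were lower in all 4 DSS-treated libraries. Ppp1r15a, which restarts translation after stress, fell by 1.98 on the log2 scale (edgeR adjusted p = 0.0406), and the copper chaperone gene Atox1 by 1.72 (edgeR adjusted p = 0.0283). Ccrl2, Ifrd1, Lst1, Ppp1r15a and Atox1 entered the test only through untreated libraries, so their direction was largely fixed by the filter. Ppp1r15a lost its call in 11 of 18 alternatives, Atox1 in 10 of 17, Lst1 in 10 of 18, Ifrd1 in 7 of 18 and Ccrl2 in 6 of 19.

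**Figure D4:**
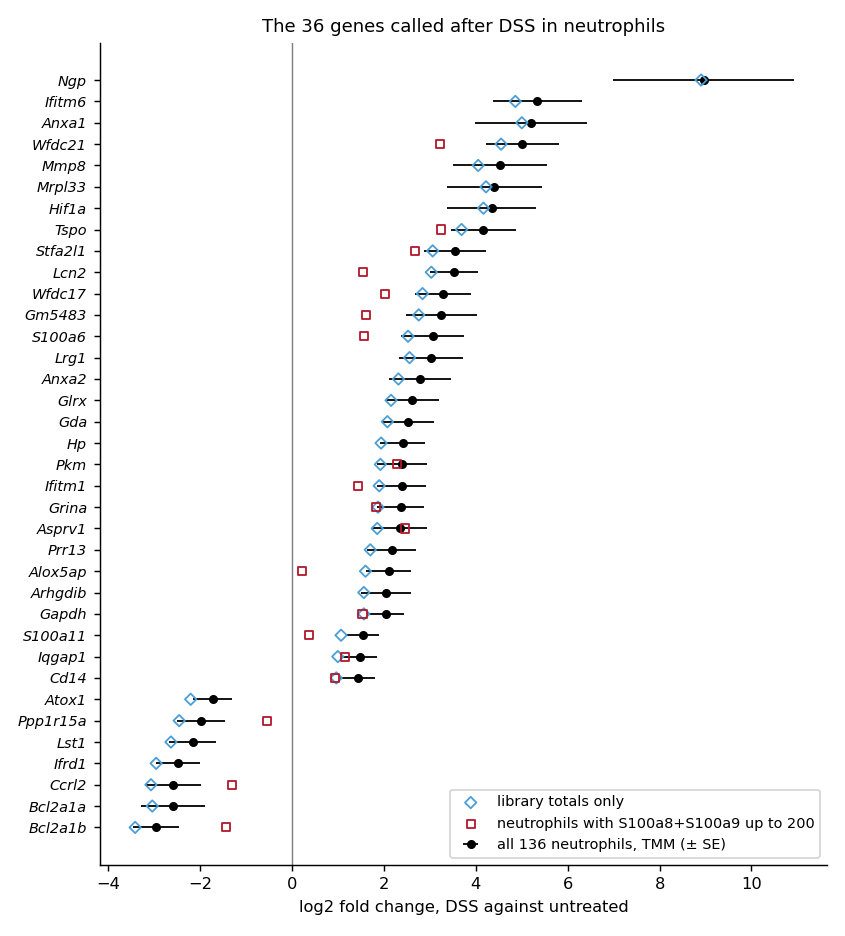
Log2 fold change of DSS-treated over untreated neutrophils (x axis) for the 36 genes that passed (y axis), with bars of 1 standard error from edgeR (black). Diamonds are the fit with library totals without TMM factors and squares the fit of neutrophils with at most 200 UMIs of S100a8 and S100a9, where tested. The 29 higher genes lie to the right of 0 and the 7 lower genes to the left; the fitted value of Ngp, at 0 in all untreated libraries, depends on the prior count.

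Other neutrophil programmes had no gene past the threshold, where 7.96% of all 452 tested genes passed. With so few genes tested in each list, 0 calls do not show that a programme was unchanged. Of 19 cytokine and chemokine genes 6 were tested and 0 passed (median -0.02). Cxcl2, a CXCR2 ligand that neutrophils make themselves, was at 7356 and 17571 CPM in untreated wildtype, 32429 and 22495 in untreated mutant, 18883 and 8943 in DSS-treated wildtype and 14972 and 5933 in DSS-treated mutant libraries. For Cxcl2 the fit gave log2 fold change -0.14, SE 0.42, edgeR adjusted p = 0.843. Il1b, interleukin 1 beta, was at 5959 and 5597 CPM in untreated wildtype, 9099.9 and 4813 in untreated mutant, 6916 and 4612 in DSS-treated wildtype and 5677 and 2932 in DSS-treated mutant libraries. For Il1b the fit gave log2 fold change 0.11, SE 0.40, edgeR adjusted p = 0.871. Both transcripts were abundant with and without DSS, their ranges overlapped, and the sign of their fold changes turned under other settings. Of the oxidative burst genes 5 of 7 were tested (median 0.59), of cytokine receptors 3 of 12 (median 0.35), of Fc and inhibitory receptors 3 of 12 (median -0.50), of adhesion and migration genes 6 of 10 (median 0.91) and of immediate early genes 6 of 11 (median -0.57), and 0 passed in each. The adhesion median was -0.78 without DSS-treated mutant library 2 and -0.65 without DSS-treated wildtype library 2; Icam1 was called lower with library totals, and Icam1 and Coro1a were called without the 14 neutrophils with markers of other types. The chemokine receptor gene Cxcr2 and the formyl peptide receptor gene Fpr1 were singled out after their values were seen: they differed by 2.26 on the log2 scale (edgeR adjusted p = 0.0525, SE 0.64) and 2.59 on the log2 scale (edgeR adjusted p = 0.0545, SE 0.74). Both entered the test only through DSS-treated libraries, so nothing is read from their direction.

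The study set out wildtype DSS against untreated, and mutant against wildtype in each treatment, and these rest on 2 libraries a side. In wildtype 0 of 452 genes passed for DSS against untreated (0.0%; 97 at an unadjusted p under 0.05 in edgeR; DESeq2 called 5). In mutant mice 2 passed (0.442%): Lcn2 rose (log2 fold change 4.26, SE 0.78, edgeR adjusted p = 0.0443) and Bcl2a1b fell (log2 fold change -3.90, SE 0.71, edgeR adjusted p = 0.0443). Neither was called in 10 of 20 alternatives, among them only the libraries compared, DESeq2 size factors in edgeR, and each fit without untreated mutant library 2 or a DSS-treated wildtype library. In wildtype the same genes differed by 2.80 on the log2 scale (edgeR adjusted p = 0.134, SE 0.71) and -2.03 on the log2 scale (edgeR adjusted p = 0.145, SE 0.70). The difference between the genotypes in the response to DSS passed for 0 of 452 genes (0.0%; 40 at an unadjusted p under 0.05 in edgeR; 0 in DESeq2). Between untreated mutant and untreated wildtype neutrophils 0 of 452 passed (0.0%; 51 at an unadjusted p under 0.05 in edgeR; 0 in DESeq2).

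After DSS, mutant neutrophils were set against wildtype ones over the 3 libraries with at least 20 neutrophils, 1 wildtype and 2 mutant, and 3 of 1550 genes passed (0.194%), 1 higher (0.0645%) and 2 lower (0.129%) in mutant. Il22, a type 17 cytokine gene, was lower in mutant (-6.42 on the log2 scale, SE 0.80, edgeR adjusted p = 2.16e-12), but all 55 of its UMIs in DSS-treated wildtype library 2 came from 1 barcode. Apoe, a lipid carrier gene of macrophages, was at 96.5 and 933 CPM in DSS-treated wildtype and 168 and 119 CPM in DSS-treated mutant libraries (log2 fold change -2.64, SE 0.58, edgeR adjusted p = 0.00493). Man2a1, a Golgi mannosidase gene, was at 64.3 and 0 CPM in the wildtype and 112 and 338 CPM in the mutant libraries (edgeR adjusted p = 0.0276), with the wildtype library in the fit at 0. DSS-treated wildtype library 1, which the fit left out, held 0 UMIs of Il22. The wildtype side was 1 library, assumed to vary like the mutant ones, so these 3 calls compare that library. For Apoe the other wildtype library lay below both mutant ones. With all libraries 0 genes passed, as without the 14 neutrophils with markers of other types.

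Genes for factors linked to neutrophils, among them the migration-limiting Anxa1, were read in the fibroblast and macrophage barcodes of the same libraries. In fibroblasts 6 of 13 tested ligand genes rose and 0 fell after DSS, where 12.3% of all 13110 genes passed, 6.51% higher and 5.77% lower. Csf3 went from 2.64 ± 2.76 to 125 ± 47.7 CPM (SD, n = 4; log2 fold change 5.94, SE 0.52, edgeR adjusted p = 0.00193) and Cxcl5, a CXCR2 ligand gene, from 44.2 ± 16.1 to 573 ± 189.6 CPM (SD, n = 4; log2 fold change 3.78, SE 0.40, edgeR adjusted p = 0.00301). The other called genes were Il6, Cxcl3, C3 and Il1b, at log2 fold changes of 2.44, 1.89, 1.69 and 1.17; Il1b lost its call in 6 of 10 alternatives. In T cell barcodes Il1b was at 86.6 ± 21.7 CPM untreated and 158.5 ± 62.0 CPM after DSS (SD, n = 4), against 49.6 ± 14.03 and 108 ± 55.1 CPM in fibroblasts, and the source of these UMIs was not tested. In macrophages 4 of 13 rose, where 21.6% of all 10508 genes passed, 1158 higher (11.0%) and 1116 lower (10.6%): Cxcl5 by 2.21, Csf3 by 1.29, Il6 by 1.03 and Cxcl3 by 0.85 on the log2 scale. The macrophage levels were low: Csf3 went from 4.19 ± 0.527 to 11.8 ± 4.76 CPM and Cxcl5 from 2.43 ± 1.27 to 12.1 ± 11.7 CPM (SD, n = 4). Macrophage Cxcl5 was at 1.595 CPM in DSS-treated wildtype library 1, below the 1.795 CPM of untreated mutant library 1, so its ranges overlapped. It lost its call in 7 of 10 alternatives, while macrophage Csf3 lost it in 3 of 10, Cxcl3 in 2 of 10 and Il6 in 2 of 10. In T cell barcodes Cxcl5 went from 5.80 ± 5.72 to 13.7 ± 5.07 CPM and Cxcl3 from 63.6 ± 47.1 to 107 ± 67.0 CPM. Cxcl3 went from 37.8 ± 8.96 to 74.9 ± 15.1 CPM in macrophages and from 2.58 ± 0.817 to 9.26 ± 3.11 CPM in fibroblasts (SD, n = 4). The part of RNA from other cells in these levels was not tested. Csf3 in T cell barcodes was at 0.265 ± 0.308 and 1.24 ± 0.649 CPM. The macrophage count was 0 without untreated wildtype library 2 and 1 without untreated mutant library 1.

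**Figure D5:**
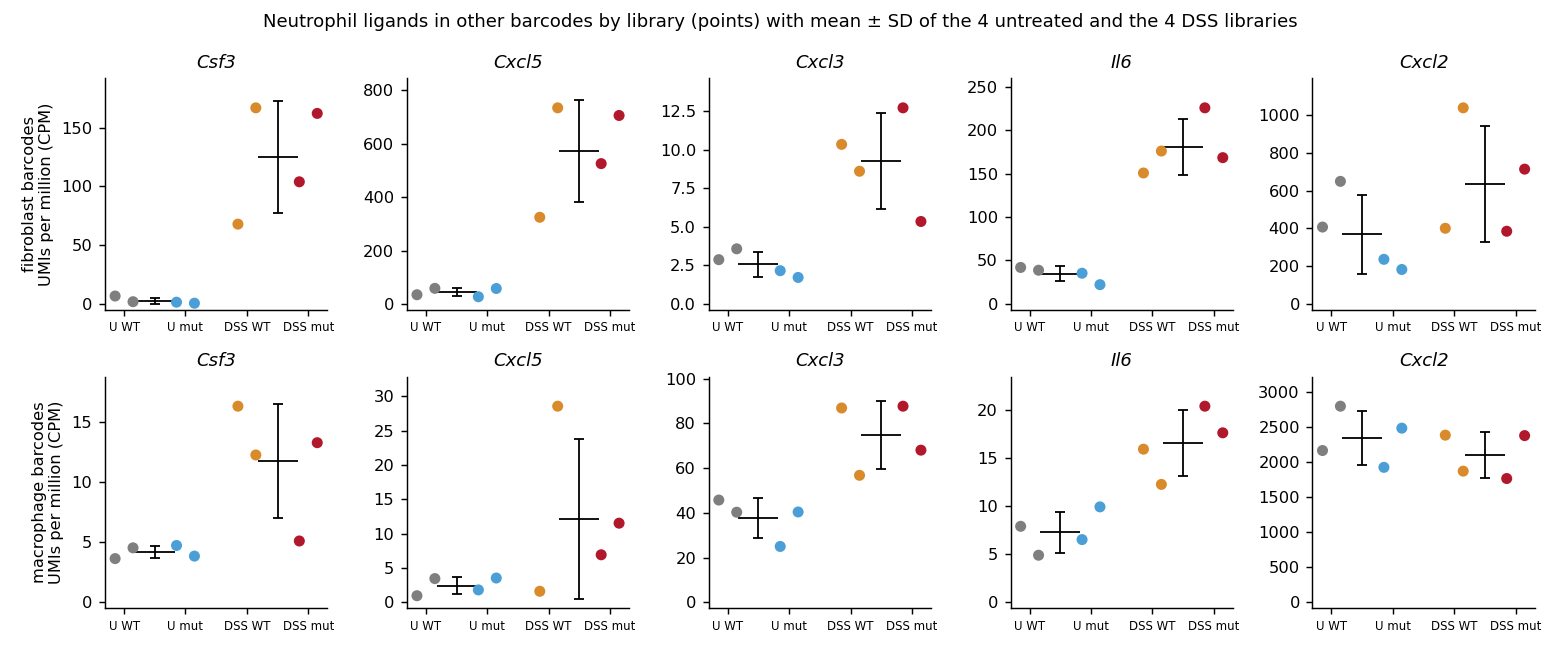
Level of neutrophil ligand genes (y axis, CPM) in fibroblast (upper row) and macrophage barcodes (lower row) of each library (x axis), with 1 point per library and the mean and SD of the 4 untreated and the 4 DSS-treated libraries. Csf3 in fibroblasts lies at 0.57 to 6.70 CPM untreated and 67.9 to 167 CPM after DSS.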

How the data were processed

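Droplet libraries were made with the 10x Chromium system from colonic lamina propria after CD4+ T cell isolation, per the labels' protocols. The authors deposited whole-number UMI counts per gene and barcode for 8 libraries; Cell Ranger 3.1.0, Seurat 4.0.1 and the build mm10 stand in the submitters' processing notes, with no role or order. The deposited tables hold 31053 gene rows. From these counts, neutrophils were selected by the rule in the report, no doublet caller was run (the limits on C1q, Cd3, Ccl and Col3a1 genes stand in for one), and counts were summed per library. Genes were tested with edgeR 4.0.16 (quasi-likelihood, TMM, filterByExpr, R 4.3.3) with Benjamini-Hochberg adjustment over all tested genes, and DESeq2 1.42.0 was an alternative. Fold changes are on the log2 scale of the fit and CPM is the summed count per 1000000 neutrophil UMIs. Shares were compared on log2 values with exact permutation tests over libraries. The fit was tested on simulated data with 200 genes changed 4-fold: in the neutrophil design over 452 genes, 77.5% were recovered with 3 false calls. The simulation gave all genes 1 common spread and changed far more genes than the 36 that passed in the data. Its recovered share therefore does not measure the power in the data.

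The plan asked for at least 20 neutrophils per library, which 3 libraries reach. The 5 comparisons that involve untreated mice therefore use all 8 libraries, a choice made after the neutrophil counts and a first fit had been seen. The neutrophil rule, the gene lists and the tests were chosen with earlier results of these data known. Genes were named when called or among the 4 highest of a list, and beyond lists the 10 largest changes in each direction whose groups did not overlap and whose mean reached 20 CPM in a group; exceptions are marked in the text. The marker count that sets aside 14 neutrophils leaves out Apoe, Cd68, Chil3, Siglecf and Xbp1, and Ly6c2, which young neutrophils also express. Igha and Jchain count only toward the limit on immunoglobulin transcripts. Leaving out Ly6c2 was a change made after seeing the counts. The mutated gene and 1 marker are not reported here. The labels name no batch, and p-values measure the spread between the deposited libraries.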

Additional observations from a re-analysis of the deposited data

Results flagged for a closer look

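The neutrophil share, the 36 genes called for DSS against untreated and the 8 secondary granule genes were checked for a library standing apart. This was done within the 4 untreated and the 4 DSS-treated libraries. The gap to the nearest neighbour, as a share of the range, was set against Dixon's 95% critical value. Of 78 groups of values 9 met this, where chance gives about 1 in 20. Other named genes were not checked. Ngp was at 7871 CPM in DSS-treated mutant library 2, with the next DSS-treated library at 687 CPM. Camp was at 358 CPM in that library and 46.8 CPM in the next. Chil3 was at 2852 CPM there and 282 CPM in the next. Wfdc17 was at 3475 CPM in untreated mutant library 1, with the next untreated library at 652 CPM. Bcl2a1a was at 1820 CPM in untreated mutant library 1 and 491 CPM in the next. Cd14 was at 3805 CPM in the same library and 2161 CPM in the next. Ltf was at 130.2 CPM, a single UMI, in untreated wildtype library 2 and at 0 in the other untreated libraries. In DSS-treated wildtype library 1, Ccrl2 was the highest of the DSS-treated libraries at 1158 CPM (next 253) and Mrpl33, a mitochondrial ribosomal protein gene, the lowest at 257 CPM (next 514).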

How the results depend on the processing

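The share of neutrophils after DSS kept its direction under every alternative run, with log2 differences of 2.04 at 200 genes, 3.21 at 600 genes, 2.40 at 20 UMIs of S100a8 and S100a9, 2.65 at 2 UMIs of Csf3r and Retnlg, 1.93 to 2.31 when 1 library was left out, and 2.15 with splits within each genotype (exact permutation p = 0.0556). The mutant against wildtype share, as the mean of the differences within treatments, ranged from 0.65 to 0.87 when 1 library was left out; its exact permutation p was 0.111 without untreated wildtype 1, without untreated mutant 2, at 200 genes and at 2 UMIs of Csf3r and Retnlg. The 36 calls for DSS against untreated over both genotypes became 56 with library totals without TMM factors, 100 without a filter on low counts, 13 among neutrophils with up to 2000 UMIs and 0 with at most 200 UMIs of S100a8 and S100a9; leaving out 1 library gave 2 to 43. In wildtype, where 0 genes passed, DESeq2 gave 5, no filter 26, up to 2000 UMIs 2, and leaving out 1 library 0 to 7. In mutant mice, where 2 passed, DESeq2 gave 13, edgeR with DESeq2 size factors 0, library totals without TMM 5, no filter 30, a limit of 20 UMIs of S100a8 and S100a9 0, a limit of 200 genes 6, only the libraries compared 0, without neutrophils with other markers 7, immunoglobulin genes out of library sizes 6, S100a8 and S100a9 out 0, at most 200 S100a8 and S100a9 UMIs 0, up to 2000 UMIs 7, and leaving out 1 library 0 to 11. Untreated mutant against wildtype gave 0 to 1 when 1 library was left out. Mutant against wildtype after DSS, with 3 calls, gave 0 with all libraries, 1 with DESeq2, 1 with DESeq2 size factors in edgeR, 0 without a filter, 0 at 20 S100a8 and S100a9 UMIs, 0 without neutrophils with other markers and 6 with immunoglobulin genes out; no library could be left out there (1 against 2). The 4 macrophage ligands became 8 without a filter and 0 to 5 when 1 library was left out.

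Signs turned for Cxcl2 without a filter (0.58) and in 5 of the 8 fits without 1 library (-0.28 to 0.44; 0.44 without untreated wildtype 2, 0.16 and 0.14 without untreated mutant 1 and 2, 0.20 without DSS-treated wildtype 2, 0.25 without DSS-treated mutant 2), and for Il1b with library totals without TMM (-0.35), at 200 genes (-0.0063), without other markers (-0.37) and up to 2000 UMIs (-0.49). Ligands that were not called turned when 1 library was left out: in fibroblasts Csf1 (-0.062 to 0.18) and Il17f (-0.21 to 1.16), in macrophages Cxcl1 (-0.13 to 0.74), Csf1 (-0.21 to 0.52) and Il17f (-0.66 to 1.86). Of the single-gene values under alternatives, 594 kept direction and side of the threshold, 158 lost their call, 19 gained one and 16 turned; the cause was not tested. Library totals without TMM, the limits on markers, UMIs and S100a8 and S100a9, the left-out immunoglobulin, S100a8 and S100a9 genes and the macrophage denominator were chosen after seeing the data. No paired analysis was run, because the groups share no number in their titles and no label states a pairing.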
